A study of Mus musculus with 5 samples.

Results

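Qpct, Ttll11, Ptpn7, Ttc34 and Npcd are 5 mouse genes with no shared pathway that were read in mutant colon spheroids and hardly at all in wild-type ones. They are 5 of the 32793 gene rows of the deposited tables. They were chosen by name because of that pattern, so their difference between genotypes is described here with no test and supports nothing by itself. Colon spheroids are three-dimensional cultures of colon epithelium, and their RNA was sequenced in bulk. In the mutant group of 2 libraries (labelled RA in the sample titles, called NDD here) the cells carried the alleles Notch1DD and Notch2DD, whose receptors are dimerization-deficient. The wild-type group (WT) had 3 libraries. The labels give 1 strain background for all 5 libraries, a mixed one of mostly C57Bl6 and some FVB, and no treatment, age or sex. They do not say whether the cultures came from separate mice, so p-values measure only the spread between these libraries, which may be technical.

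The 5 products act in different parts of the cell. QPCT is a glutaminyl cyclase of the secretory route that closes an N-terminal glutamine or glutamate into pyroglutamate, which protects peptides such as chemokines and hormones from aminopeptidases. TTLL11 belongs to the tubulin tyrosine ligase-like enzymes, which add amino acids to tubulin tails, and is one of those that add glutamate chains. PTPN7, also called HePTP, is a tyrosine phosphatase known from blood cells that binds MAP kinases through a kinase interaction motif and inactivates them. TTC34 is a protein with tetratricopeptide repeats, a fold that mediates protein contacts. Npcd is a read-through gene that joins the first exons of Cbx6, a chromodomain gene of the Polycomb group, to exons of Nptxr, the neuronal pentraxin receptor. Notch receptors are cut when a ligand binds, and the freed part enters the nucleus and switches on genes together with RBPJ. In the colon this pathway is known for keeping progenitors and limiting secretory fates.

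The libraries held between 19192389 and 23064000 counts. Spearman correlations of log2 CPM (the count as a part of the TMM-scaled library total) were 0.984 to 0.987 among WT libraries and 0.966 between the 2 NDD libraries. The NDD libraries did not group together. NDD replicate 1 lay nearer to each WT library (0.973 to 0.985) than to NDD replicate 2, which lay as near to WT replicate 2 (0.966). Of the 12 colon epithelium markers all had counts, with summed levels of 15063 to 17259 CPM in NDD and 14139.5 to 15417 CPM in WT, before TMM scaling as for all marker sums here. Within this list Krt20 was higher in NDD without overlap (1373 and 2787 counts against 677, 804 and 115). Muc2 overlapped (4548 and 5887 against 8044, 2882 and 1665), and 0 of the 12 had an edgeR adjusted p under 0.05. Fibroblast markers summed to 10.1 to 26.1 CPM in NDD and 4.86 to 9.38 CPM in WT. Most of that sum was Pdgfrb, with 188 and 552 counts in NDD and 122, 102 and 80 in WT, while Lum and Thy1 had 0 counts in every library. Vim had 17 and 13 counts in NDD and 37, 31 and 14 in WT, and Col3a1 had 5 and 1 against 10, 3 and 7. The part of these markers in the results below was not tested. In bulk RNA, more cells with a transcript and more transcript per cell cannot be told apart. All 5 genes passed the filter on low counts (13501 genes did), each through its NDD libraries alone.

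Qpct was the most abundant of the 5. It had 148 and 167 counts in NDD and 2, 5 and 6 counts in WT. The groups were far apart, and no WT library was without a Qpct read. Levels here and below are means ± SD over the 2 NDD and the 3 WT libraries. Qpct averaged 7.15 ± 0.954 CPM across NDD against 0.194 ± 0.0802 CPM across WT, a ratio of means of 36.9. On the length-scaled TPM, the authors' transcript abundance, it was 5.74 and 6.52 in NDD and 0.09, 0.2 and 0.23 in WT. Qpct lies at chr17:79051906-79090378 (mm10, plus strand) and overlaps no other gene of the table. Its counts and TPM imply a transcript of 2063 and 2040 bases in the 2 NDD libraries, where the longest annotated one has 2059 bases.

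None of the tested relatives of Qpct passed the threshold. Its paralog Qpctl, the Golgi enzyme of the same activity, averaged 16.2 ± 3.62 CPM across NDD against 19.1 ± 2.73 CPM across WT (log2 fold change -0.24, SE 0.21, edgeR adjusted p 0.616). Of 13 listed genes for the enzyme, its reversal and its substrates, 6 could be tested, and 0 passed an adjusted p of 0.05 in edgeR, DESeq2 or limma. The highest fold was that of Pgpep1, which removes pyroglutamate (log2 fold change 0.23, SE 0.22, edgeR adjusted p 0.632). The lowest was that of the chemokine Ccl2, with 5 and 2 counts in NDD and 6, 23 and 129 in WT (log2 fold change -3.82, SE 1.42, edgeR unadjusted p 0.0348, adjusted p 0.437). Ccl2 varied widely among the WT libraries and did not overlap NDD. App and Cx3cl1, which encode other known substrates, had log2 fold changes of 0.14 and 0.05. The substrates Trh and Gast had 0 counts in every library. The median of the 6 tested genes was -0.09, against -0.0047 over all tested genes.

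Ttll11 had 68 and 56 counts in NDD and 2, 2 and 0 in WT. The NDD mean was 2.80 ± 0.248 CPM. Summed over libraries and scaled to their totals, the ratio of NDD to WT counts was 45.8. Its exact 95% interval of 17.5 to 171 covers counting error only and not the spread between libraries. Ttll11 and Ptpn7 were chosen for this difference, so an interval of this kind is no test of it. TPM values were 1.88 and 1.72 in NDD and 0.06, 0.05 and 0 in WT. The 2 NDD libraries lay close together and far above every WT library. The gene spans chr2:35751241-35979913 (minus strand). An antisense gene inside it, 9030204H09Rik, had 1 and 6 counts in NDD and 0, 2 and 1 in WT. The library kit keeps strand. Whether the counting used it is not given in the sources used here.

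The list for Ttll11 held other tubulin ligase-like genes, deglutamylases, partners of these enzymes and microtubule severing proteins. Of 25 listed genes, 19 were tested, 8 with a higher and 11 with a lower value in NDD. None passed the adjusted threshold in edgeR or DESeq2, nor did any of the 18 genes that limma covered. Of the 19, 4 had an unadjusted p under 0.05 in edgeR, where 11.2% of all tested genes did. The glutamylase Ttll6 averaged 20.6 ± 3.43 CPM across NDD against 11.5 ± 3.79 CPM across WT (log2 fold change 0.84, SE 0.29, edgeR adjusted p 0.437). Agtpbp1, a deglutamylase that removes these chains, averaged 26.7 ± 7.12 CPM across NDD against 17.2 ± 1.39 CPM across WT (log2 fold change 0.63, SE 0.20, edgeR adjusted p 0.413). Ttll12 averaged 85.8 ± 18.6 CPM across NDD against 131 ± 10.3 CPM across WT (log2 fold change -0.62, SE 0.17, edgeR adjusted p 0.369). The lowest was Ttll7 (log2 fold change -0.96, SE 0.34), and the highest was Ttll10 (1.20, SE 0.92), which had 572 counts in NDD replicate 2 and 74 in replicate 1. Ttll9 had at most 2 counts in any library. The list's median was -0.03. Markers of ciliated cells, whose axonemes carry glutamylated tubulin, summed to 1.08 to 1.43 CPM in NDD and 1.57 to 2.24 CPM in WT, with Mcidas at 0 counts in every library.

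Ptpn7 had 69 and 66 counts in NDD and 0, 1 and 1 in WT. The NDD mean was 3.05 ± 0.0524 CPM. The same ratio of summed counts was 99.8 (exact 95% interval 27.1 to 832), where the WT side rests on 2 counts. TPM was 1.62 and 1.54 in NDD and at most 0.02 in WT. Of the 5 genes it was the one most alike between the 2 NDD libraries. Ptpn7 is known as a leukocyte gene, and the sums of immune markers overlapped between groups. The 14 markers summed to 12.4 to 25.9 CPM in NDD and 14.95 to 32.0 CPM in WT, where Laptm5 gave the largest part. Of the 14 markers, 4 had a lower CPM in NDD without overlap, where 16.2% of all tested genes did. These were Csf1r (1 and 8 counts against 11, 23 and 70), Lcp1 (21 and 48 against 53, 110 and 87), Cd68 (37 and 50 against 50, 81 and 87) and Coro1a (0 and 0 against 3, 2 and 2). Ptprc, the gene of the pan-leukocyte antigen CD45, had 1 and 0 counts in NDD and 1, 2 and 1 in WT, and Cd3g, Cd4 and Cd8a had 0 counts in all 5 libraries.

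The list for Ptpn7 held related phosphatases and the MAP kinases they act on. Ptpn5 and Ptprr are the other phosphatases with the kinase interaction motif. Ptpn5 had at most 2 counts in any library. Ptprr averaged 9.07 ± 3.93 CPM across NDD against 5.13 ± 1.52 CPM across WT, with overlapping groups (log2 fold change 0.82, SE 0.38, edgeR adjusted p 0.466). Mapk3, which encodes an ERK kinase, had a log2 fold change of 0.33 (SE 0.21). Of 19 listed genes, 17 were tested. By edgeR, DESeq2 and limma 0 passed the adjusted threshold, and 3 had an unadjusted p under 0.05 in edgeR, beside 11.2% of all tested genes. Those were Mapk11, a p38 kinase (log2 fold change -0.80, SE 0.27), Dusp5, an ERK phosphatase (1.11, SE 0.39, the highest of the list), and Dusp9 (-1.11, SE 0.45, the lowest). Their edgeR adjusted p-values were 0.432, 0.437 and 0.446. The median of the 17 was 0.13.

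The region before the start of Ptpn7 (chr1:135132700-135145317, plus strand) was searched for the core motif of RBPJ, TGGGAA, and for an interferon-stimulated element (GAAA, any 2 bases, GAAA), on both strands. The first contains GGAA, the core of ETS factor sites. RefSeq (GRCm38.p6) gives Ptpn7 in 2 start sites, and the 250 bases before each are shown because each held 1 match to TGGGAA, printed in capitals.
Ptpn7 start 1, chr1:135132450-135132699, plus strand: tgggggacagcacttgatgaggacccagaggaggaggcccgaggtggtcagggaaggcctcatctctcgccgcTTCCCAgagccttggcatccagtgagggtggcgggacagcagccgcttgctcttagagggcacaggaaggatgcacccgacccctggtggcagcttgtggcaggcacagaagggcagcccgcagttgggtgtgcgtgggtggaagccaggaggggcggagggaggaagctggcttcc
Ptpn7 start 2, chr1:135133059-135133308, plus strand: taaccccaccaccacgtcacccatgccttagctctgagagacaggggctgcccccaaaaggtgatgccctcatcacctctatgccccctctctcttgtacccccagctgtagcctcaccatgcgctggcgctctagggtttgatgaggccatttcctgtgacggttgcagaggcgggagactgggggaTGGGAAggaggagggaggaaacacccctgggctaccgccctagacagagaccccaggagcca
The first match reads TTCCCA, the same motif on the other strand, and begins 177 bases before the start. The second begins 62 bases before its start. Among 32851 promoter regions of the same length 21.6% held TGGGAA and 2.98% the interferon-stimulated element, which neither Ptpn7 region held. A match is a string of letters and not a measured binding site.

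Ttc34 had 32 and 39 counts in NDD and 0 counts in all 3 WT libraries. The NDD mean of 1.61 ± 0.302 CPM was 11.6 times the limit of 3 counts per WT library, which is a lower bound of its fold over WT. TPM was 0.77 and 0.93 in NDD and 0 in WT. The 2 NDD libraries differed by less than the counting error of either, whose 95% exact Poisson intervals were 21.9 to 45.2 and 27.7 to 53.3 counts. These intervals cover counting error only. The gene lies at chr4:154837459-154867127 (plus strand). It overlaps the antisense gene Gm13112, which had 0 counts in all 5 libraries. The 250 bases before its RefSeq start are shown for comparison with Ptpn7. They held neither motif, so no letter is in capitals. No such region was available here for Qpct and Ttll11, so neither gene was searched.
Ttc34, chr4:154837166-154837415, plus strand: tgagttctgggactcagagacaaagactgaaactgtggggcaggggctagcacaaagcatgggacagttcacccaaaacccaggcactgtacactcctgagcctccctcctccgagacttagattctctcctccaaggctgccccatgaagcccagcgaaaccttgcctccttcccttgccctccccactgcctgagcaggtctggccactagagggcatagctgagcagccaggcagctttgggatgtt
The other 39 genes with a Ttc symbol share the repeat and no common task, and 32 of them were tested. By edgeR and DESeq2 0 passed the adjusted threshold, and by limma 0 of the 26 that it covered. An unadjusted p under 0.05 in edgeR was found for 4, near the 11.2% of all tested genes. The median log2 fold change was 0.13. The values ran from -1.16 (Ttc9, SE 0.38, edgeR adjusted p 0.419) to 1.14 (Ttc36, SE 0.63, edgeR adjusted p 0.482). Ttc39c, which was too low to test, had 8 and 10 counts in NDD and 3, 0 and 1 in WT.

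Npcd had 21 and 34 counts in NDD and 0 counts in all 3 WT libraries. The NDD mean of 1.26 ± 0.477 CPM was 9.05 times the limit of 3 counts per WT library, which is a lower bound of its fold over WT. TPM was 0.33 and 0.56 in NDD and 0 in WT. It was the least abundant of the 5 and the one that differed most between the NDD libraries. Neuron and glia markers summed to 1.76 and 1.79 CPM in NDD and 1.70 to 2.03 CPM in WT, with Sox10 at 0 counts in every library.

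The value of Npcd is uncertain because nearly all of its sequence belongs to other genes. Its annotated transcripts (chr15:79789675-79834237, minus strand) take their first 4 exons from Cbx6 and their last 4 from Nptxr, and the longer transcript has 1 more exon within Cbx6. Of the 31-base strings in them 96.3% also occur in another gene, 59.4% in Nptxr and 36.8% in Cbx6. For the other 4 genes that share was between 0.0491% (Ttll11) and 1.72% (Ptpn7). A read belongs to Npcd alone where it crosses from a Cbx6 exon to the first Nptxr exon used. The 2 annotated joins are shown with the 25 bases before the join in lower case and the 25 bases after it, from Nptxr, in capitals.
Join of the shorter Npcd transcript: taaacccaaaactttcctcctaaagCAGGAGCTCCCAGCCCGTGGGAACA
Join of the longer Npcd transcript: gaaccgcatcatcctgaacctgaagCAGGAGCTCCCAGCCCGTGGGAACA
The Nptxr side is the same in both, and the intron spans 39.0 kb in the shorter and 34.2 kb in the longer transcript. The implied length of the Npcd row was 5091 and 4836 bases in the 2 NDD libraries. That is longer than both annotated transcripts (1162 and 1453 bases) and near those of the Nptxr row (5162 and 5251 bases) and the Cbx6 row (5798 and 5087 bases). RefSeq gives Npcd the span chr15:79786351-79834333, from the start of Cbx6 to the end of Nptxr. Which bases its reads covered was not tested.

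The 2 genes that share sequence with Npcd had lower values in NDD. Cbx6 had 100 and 350 counts in NDD and 624, 1044 and 1249 in WT. Nptxr had 40 and 89 in NDD and 103, 269 and 548 in WT. Every NDD value lay below every WT value for both genes. Cbx6 averaged 10.4 ± 8.50 CPM across NDD against 43.9 ± 10.8 CPM across WT (log2 fold change -2.08, SE 0.56, edgeR adjusted p 0.359). Nptxr averaged 2.96 ± 1.71 CPM across NDD against 13.6 ± 9.21 CPM across WT (log2 fold change -2.20, SE 0.71, edgeR adjusted p 0.417). Neither passed the adjusted threshold in edgeR, and both did in DESeq2 (adjusted p 0.00335 and 0.0270). Summed over the 3 overlapping genes, the NDD mean was 14.6 ± 10.7 CPM and the WT mean 57.5 ± 19.7 CPM. The sum was lower in the libraries with Npcd counts. Npcd took 13.0% of the summed counts in NDD replicate 1 (exact Clopper-Pearson 95% interval 8.26 to 19.2%) and 7.19% in NDD replicate 2 (5.03 to 9.90%). In WT it took 0 of 727, 1313 and 1797 counts, which allows a share of up to 0.413%, 0.228% and 0.167% by the limit of 3 counts, or 0.506%, 0.281% and 0.205% by the exact interval used for NDD. These intervals and limits cover counting error only, and the choice of Npcd for its counts fixes the order of the groups. The submitters' notes name RSEM, whose counts are estimates where reads match several genes. How many of the Npcd counts rest on such shared reads was not tested.

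**Figure D1:**
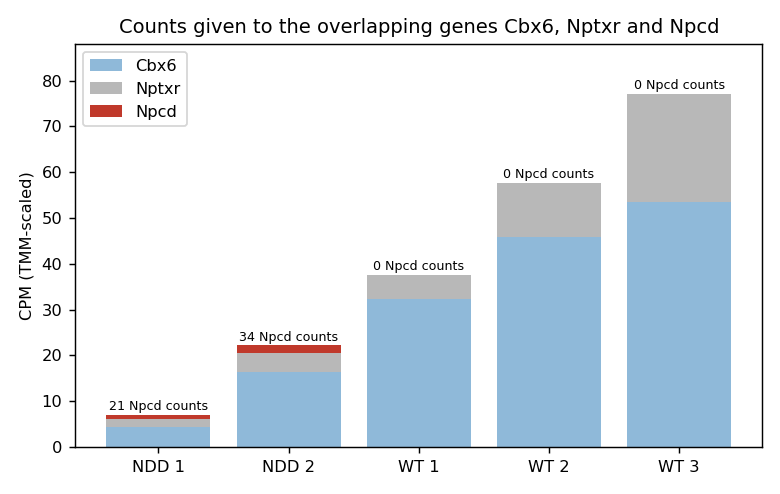
Stacked bars give the CPM of Cbx6, Nptxr and Npcd in each of the 5 libraries, with the Npcd counts printed above. The sum ran from 7.04 CPM in NDD replicate 1 to 77.1 CPM in WT replicate 3, and only the 2 NDD bars, the lowest ones, hold Npcd counts.

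The list for Npcd held the other chromobox and neuronal pentraxin genes. All 11 listed genes were tested, and 0 passed the adjusted threshold in edgeR, while DESeq2 called Cbx6 and Nptxr. By edgeR 3 of the 11 had an unadjusted p under 0.05, beside 11.2% of all tested genes. Their median log2 fold change was -0.25. Nptx2 had 3 and 4 counts in NDD and 9, 6 and 18 in WT, lower without overlap (log2 fold change -1.63, SE 0.72, edgeR adjusted p 0.460). Nptx1 averaged 1.30 ± 0.320 CPM across NDD against 1.27 ± 0.205 CPM across WT. Over the lists of all 5 genes edgeR called 0 of 85 tested relatives at an adjusted p under 0.05, where 0.0889% of all tested genes were called (12 of 13501, 0.0667% higher and 0.0222% lower). An unadjusted p under 0.05 was found in 15 of the 85, beside 11.2% of all tested genes. DESeq2 called 2, beside 357 over all genes. The call count over all genes depended on the WT libraries: by edgeR it was 0 when WT replicate 1 was dropped (with 1221 at an unadjusted p under 0.05), 5 without replicate 2 and 2 without replicate 3.

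**Figure D2:**
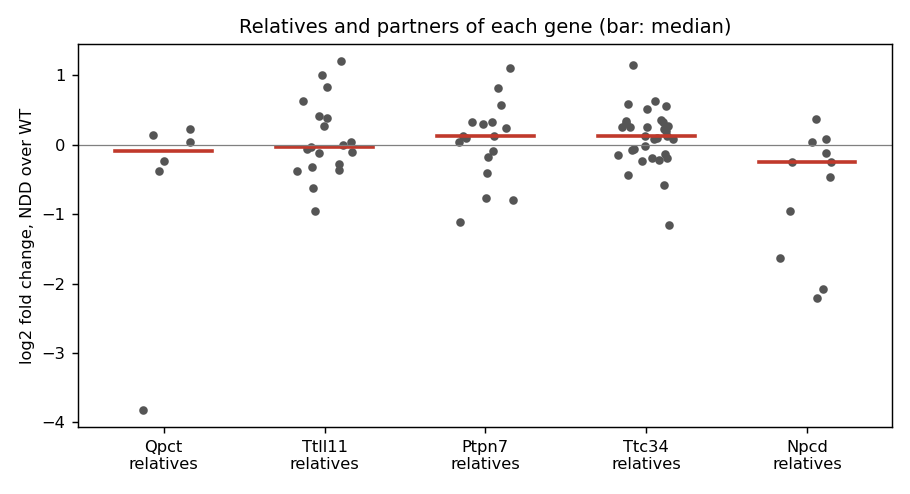
Each point is the log2 fold change, NDD over WT, of 1 tested relative or partner of the gene named below it, and the bar is the median of the list. Medians lay between -0.25 (Npcd list) and 0.13 (Ptpn7 and Ttc34 lists), and the lowest point is Ccl2 at -3.82.

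Among themselves the 5 genes kept 1 order of level in NDD. On TPM, the scale on which genes of different length can be set side by side, the means were 6.13 for Qpct, 1.80 for Ttll11, 1.58 for Ptpn7, 0.850 for Ttc34 and 0.445 for Npcd. Ttll11 and Ptpn7 lay closest, with all 4 NDD values between 1.54 and 1.88, a gap smaller than the counting error (95% interval of 52.8 to 86.2 for the 68 counts of Ttll11). Even Qpct stood at percentile 29.8 of the tested genes by NDD mean TPM, and Npcd at percentile 5.10. The 5 genes together had 700 counts in the 2 NDD libraries and 19 in the 3 WT libraries, and 8 of the 15 WT values were 0. Between the NDD libraries, replicate 2 over replicate 1, the log2 ratios of CPM were 0.27 for Qpct, -0.18 for Ttll11, 0.035 for Ptpn7, 0.38 for Ttc34 and 0.79 for Npcd. Over the 2182 tested genes with a mean NDD count in the same range, the middle 50% of such ratios ran from -0.35 to 0.76. Only Npcd lay outside it.

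**Figure D3:**
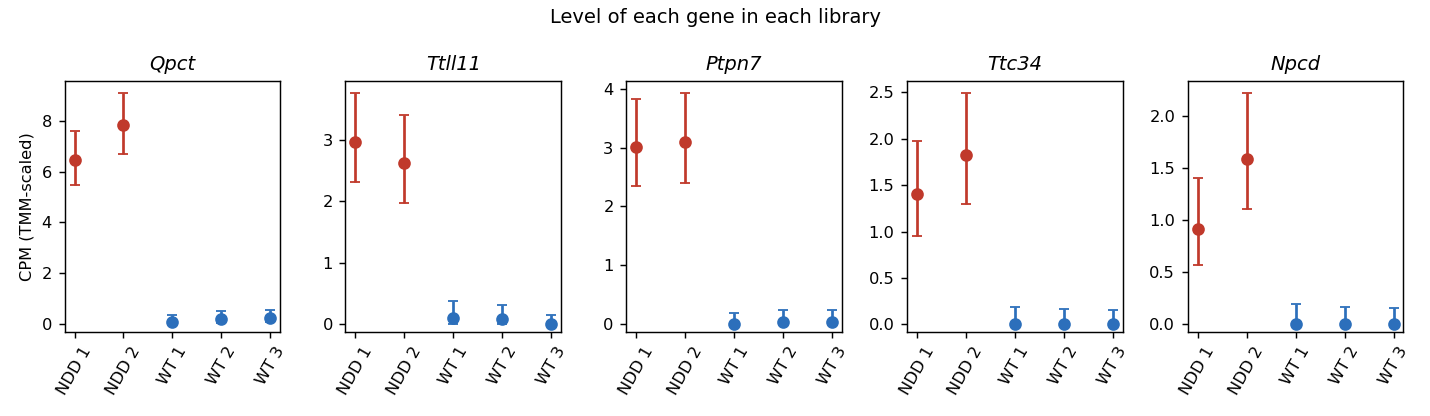
Points give the CPM of each gene in each library on a linear axis, and bars give the exact 95% Poisson interval of the count. NDD points run from 0.918 CPM (Npcd) to 7.82 CPM (Qpct) and WT points from 0 to 0.257 CPM. The genes were chosen for this difference, and the intervals cover counting error only.

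The description of being read in NDD and not in WT was then applied to every gene row. It asked for at least 10 counts in both NDD libraries and at most 3 counts in each WT library. It was met by 24 rows, 0.125% of the 19182 rows with a count, and 4 of the 24 were among the 5 genes. The choice of the genes fixed that count, so nothing is read from it. Qpct fell just outside with its 5 and 6 counts in WT replicates 2 and 3. At the other edge, Slco4c1 was just inside with 16 and 10 counts in NDD, and Myoz2 just outside with at least 9. The reverse description was met by 3 rows (0.0156%), Zfp976, Pcdhga11 and Tdrd12. Zfp976 had 0 counts in NDD and 52, 42 and 46 in WT. Both counts moved when 1 library was left out. The first became 78 or 45 when NDD replicate 1 or 2 was dropped, and 41 when WT replicate 2 was. The second was 31 and 27 without NDD replicates 1 and 2, and 13, 6 and 6 without WT replicates 1, 2 and 3.

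**Figure D4:**
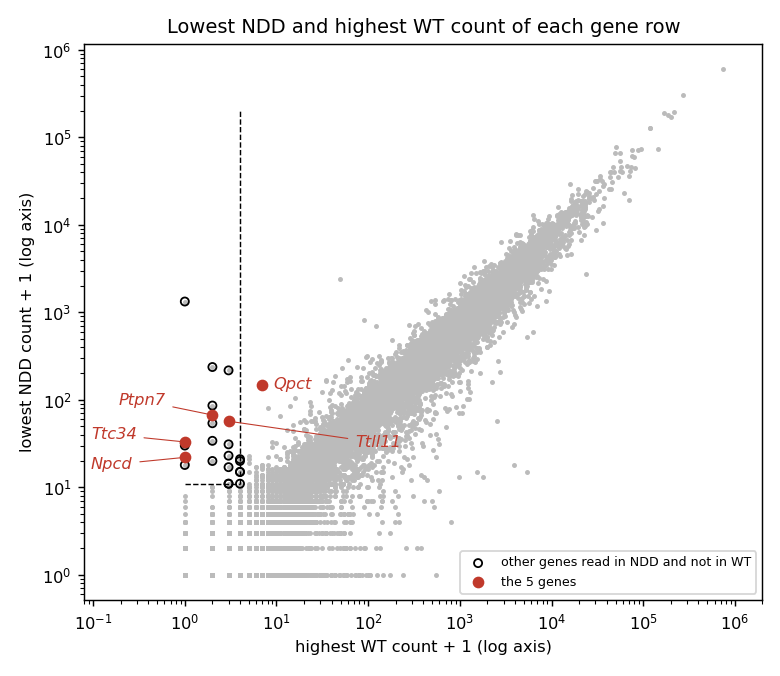
Each grey point is a gene row, with its highest WT count on the x axis and its lowest NDD count on the y axis, both plus 1 and on log axes. The dashed lines bound the 24 rows with at most 3 counts in every WT library and at least 10 in both NDD libraries. Ttll11, Ptpn7, Ttc34 and Npcd lie inside, and Qpct lies just to the right.

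The other 20 rows of the 24 were 8 predicted genes or pseudogenes and 12 named genes. Among the named ones were Retnlb, a goblet cell product, and Ifi202b, Ifi203, Ifi204 and Ifi211, which belong to the HIN-200 family of interferon-inducible DNA sensors. Of the 24, 8 lay on chromosome 1, which holds 5.94% of the placed rows with a count, while Gm9199 and AK185415 had no position. Ptpn7 and the 4 HIN-200 genes, a family in 1 cluster, were among the 8. Gpr37l1, an orphan receptor gene that begins 27.5 kb after the start of Ptpn7, had 14 and 16 counts in NDD and 3, 2 and 3 in WT (log2 fold change 2.41, SE 0.56, edgeR adjusted p 0.293). Arl8a, a lysosomal GTPase gene that lies between them, had 703 and 986 counts in NDD and 623, 791 and 662 in WT (log2 fold change 0.27, SE 0.21, edgeR adjusted p 0.563). Gpr37l1 was singled out after its values were seen.

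The rows most like each gene were found by the mean absolute difference in log2(TPM + 0.1) over the 5 libraries, among 15690 rows. Ifi203 was nearest to both Ttll11 (0.258) and Ptpn7 (0.182). It had 85 and 97 counts in NDD and 0, 1 and 0 in WT. Ptpn7 was the second nearest row to Ttll11 (0.323), and Ifi211 and Ifi204 were the next nearest to Ptpn7 (0.293 and 0.298). Capn3, a calpain protease gene, came next after Ptpn7 for Ttll11 (0.353). For Ttc34 the nearest was Ifi211 (0.143), with 17 and 22 counts in NDD and 0 in WT, before KY468134 and Gm11544. For Npcd the 3 nearest, AK079763, Gm11544 and Clca4c-ps, had at most 10 counts in any library. Qpct had no close match. Its nearest rows were Gm13710 (0.720), Adh7, an alcohol dehydrogenase gene (0.736), and Gm1943 (0.857). Adh7 had 88 and 79 counts in NDD and 0, 7 and 3 in WT. This likeness describes 5 libraries and covers level as well as pattern.

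The genes beside the 5 on their chromosomes were compared in the same fit. Of the 50 tested genes that lie in the nearest 5 on either side, edgeR called 0 at an adjusted p under 0.05. By its unadjusted p under 0.05 there were 10, beside 11.2% of all tested genes. DESeq2 called 4 (Cbx6, Nptxr, Apobec3 and Rnpep), beside 357 over all genes, and limma 0 of the 43 that it covered. The CPM of the groups did not overlap in 18 of the 50, 4 of them higher in NDD, where NDD was higher without overlap in 15.8% of all tested genes and lower in 16.2%. The median log2 fold change was -0.10 beside Qpct, -0.05 beside Ttll11, -0.10 beside Ptpn7 and -0.05 beside Ttc34, against -0.0047 over all genes. For 4 of the 5 these medians were near that of all genes. Prkd3 before Qpct and Cdc42ep3 after it had log2 fold changes of 0.28 (SE 0.25) and 0.02 (SE 0.30). Dab2ip and Ndufa8 on the sides of Ttll11 had -0.10 (SE 0.12) and -0.01 (SE 0.13). Beside Ptpn7 and Ttc34 the nearest rows Ptprv, Actrt2 and Mmel1 had at most 8 counts in any library. 

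Of the 10 tested genes closest to Npcd, 5 on each side, 8 had a log2 fold change under 0, and 5 were lower in NDD without overlap, as 16.2% of all tested genes were. Their median was -0.99, but -0.09 when 10 genes on each side were taken. After Cbx6 come the antisense transcript D730005E14Rik, Apobec3, Cbx7, Pdgfb, the ribosomal protein gene Rpl3 and, 257.1 kb from Npcd, Syngr1. D730005E14Rik had 1 and 98 counts in NDD and 100, 239 and 260 in WT, so NDD replicate 1 was nearly without it. Apobec3, a cytidine deaminase gene that restricts retroviruses, had 741 and 1058 counts in NDD and 1421, 3109 and 3855 in WT. It averaged 41.0 ± 12.1 CPM across NDD against 125 ± 47.0 CPM across WT (log2 fold change -1.61, SE 0.38, edgeR adjusted p 0.293). Cbx7 (log2 fold change -0.96, SE 0.31) and Syngr1 (-1.68, SE 0.63) were lower in the same libraries, and Pdgfb (-1.02, SE 0.53) overlapped between groups. Rpl3 lies inside the stretch and had -0.11 (SE 0.17). On the other side of Nptxr, Dnal4 had 0.05 (SE 0.17), while Tomm22, a mitochondrial import receptor gene further off, was lower without overlap (-0.80, SE 0.14, edgeR adjusted p 0.174). None of these genes passed the adjusted threshold in edgeR. In Cbx6, Nptxr, D730005E14Rik, Apobec3, Cbx7 and Syngr1 the lowest library was NDD replicate 1, the next NDD replicate 2 and the next WT replicate 1.

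**Figure D5:**
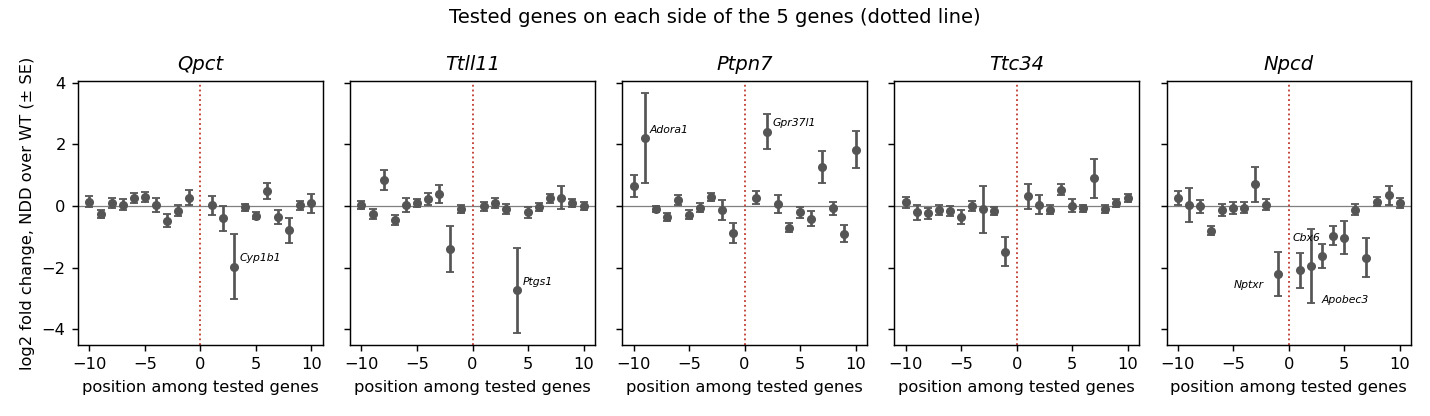
Each panel gives the log2 fold change, NDD over WT, with its SE, of the 10 tested genes on each side of 1 of the 5 genes, in chromosome order by start and left out at the dotted line. The highest point is Gpr37l1 at 2.41 beside Ptpn7, where Adora1 lies at 2.20 and Tnni1 at 1.83. Adora1 had 5 and 565 counts in NDD and 23, 136 and 34 in WT, so its groups overlapped. Of the 20 genes beside Ptpn7, 9 lie above 0 and 11 below. The lowest is Ptgs1 at -2.74 beside Ttll11, and the genes around Npcd from Nptxr to Syngr1 lie between -0.96 and -2.20, except Rpl3 at -0.11.

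The start site shared by Cbx6 and Npcd in RefSeq is given because the 2 rows have 1 start and differ in which group is higher. The 250 bases before it held neither motif, and their GC content was 68.0%.
Cbx6 and Npcd, chr15:79834334-79834583, minus strand: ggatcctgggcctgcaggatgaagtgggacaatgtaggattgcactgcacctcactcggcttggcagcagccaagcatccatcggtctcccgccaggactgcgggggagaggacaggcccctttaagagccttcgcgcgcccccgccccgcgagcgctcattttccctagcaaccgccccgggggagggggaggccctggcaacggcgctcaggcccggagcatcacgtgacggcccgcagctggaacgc

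Genotype and strain background cannot be told apart for these genes. All 5 libraries carry the same background label, and the share of C57Bl6 and FVB in each is not given in the sources used here. The 5 genes lie on chromosomes 17, 2, 1, 4 and 15. Notch2 is on chromosome 3, away from all of them, and Notch1 is on chromosome 2, where its end lies 9.23 Mb before the Ttll11 span. The 127 tested genes between Notch1 and Ttll11 had a median log2 fold change of -0.08. By edgeR 0 of them passed the adjusted threshold, and 15 had an unadjusted p under 0.05, near the 11.2% of all tested genes. Limma called 0 of the 117 that it covered. DESeq2 called 3, beside 357 over all genes. These were Crat, a carnitine acyltransferase gene, and the sialyltransferase genes St6galnac4 and St6galnac6, all higher in NDD. Crat averaged 101 ± 2.14 CPM across NDD against 44.9 ± 5.67 CPM across WT (log2 fold change 1.16, SE 0.14, edgeR adjusted p 0.0771).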

How the data were processed

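RNA of 2 NDD and 3 WT colon spheroid cultures was sequenced; the labels' protocols name a kit that keeps strand. The authors deposited an estimated count per gene, as whole numbers without normalization, and TPM values, which are scaled for transcript length and library total. Bowtie2, RSEM and build mm10 are named in the submitters' processing notes, without versions. In 214 cells the deposited count was 0 and the TPM above 0. All value columns matched a sample title.

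The counts were tested as deposited with edgeR 4.0.16 (quasi-likelihood, robust, TMM, filterByExpr) in R 4.3.3 over 13501 genes, with Benjamini-Hochberg adjustment and a threshold of 0.05. The SE was derived from the log2 fold change and its F statistic. Folds of the 5 genes are ratios of mean CPM, or of NDD mean CPM to 3 counts per WT library where no WT library had more, which is a lower bound for Ttc34 and Npcd, at 0 in WT. For Ttll11 and Ptpn7 the ratio of summed counts is given with its exact interval. No list was tested as a set. The fit was tested on simulated data. DESeq2 1.42.0 and limma 3.58.1, on log2(TPM + 1) or log2(TPM + 0.1), served as alternatives, beside other scalings and filters, a replicate block and leaving out libraries.

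The genes and lists were chosen with earlier results of these data known. Named relatives are the nearest paralogs or overlapping genes, the highest and lowest of each list, and the nearest genes on each side. Others were chosen after their values were seen. Positions are those of GENCODE M21 (24168 symbols matched) and promoters those of RefSeq, both on GRCm38, which is mm10. Implied lengths are counts per TPM, calibrated on 341 genes with 1 annotated transcript. Depth was 19192389 to 23064000 counts, and the limit set by a count of 0 (3 counts, 95% confidence, counting error only) lay at 0.129 to 0.155 CPM. Some listed genes are not reported here.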

Additional observations from a re-analysis of the deposited data

How the results depend on the processing

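The levels of the 5 genes in NDD moved by less than the SD between replicates under RLE or unscaled totals. With 2 libraries, leaving one out cannot move a mean by more than the SD and says nothing about stability. The log2 folds of Qpct, Ttll11, Ptpn7, Ttc34 and Npcd, which were 5.21, 4.34, 4.46, 3.54 and 3.18 (the last 4 against 3 counts per WT library), became 4.55, 3.83, 3.89, 3.24 and 2.41 on log2(TPM + 0.1) and 2.60, 1.43, 1.35, 0.886 and 0.526 on log2(TPM + 1). Between the last 2 scales only the pseudocount differs. The DESeq2 fold of Qpct was 5.18. DESeq2 gave 5.50, 6.65, 7.58 and 7.21 for the other 4, which are model fits to near-empty WT libraries and no bounds. Leaving out each library in turn gave 4.41 to 4.55 for Ptpn7, whose WT side is set at 3 counts, so that this range says nothing about stability.

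The number of rows read in NDD and not in WT was 24. It was 6 with 0 counts demanded in WT (Ttc34 and Npcd kept), 11 with at least 30 counts in NDD and 14 by TPM (at most 0.1 and at least 0.5). Both of these kept Ttll11, Ptpn7 and Ttc34. It ranged from 27 to 78 when 1 library was left out. The reverse count, 3, was 1, 1 and 8 in the same order and 6 to 31 without 1 library.

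The 12 genes changed over the whole table became 357 with DESeq2, 58 without a filter, 4 with at least 10 counts in every library, 28 and 32 with limma on log2(TPM + 1) and log2(TPM + 0.1), and 0 to 5 without a WT library. The cause was not tested. Fits without an NDD library leave 1 library in that group, so their calls are not given. Among the relatives and the neighbours, where edgeR called 0, DESeq2 called 2 and 4. Same-numbered libraries deviated together at correlations of 0.013 and 0.30, and no label pairs them. With the replicate block 24 genes were called, and 0 relatives or neighbours.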
